A study of Mus musculus with 4 samples.

Results

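The autophagy and mitophagy machinery was followed as 38 genes listed by name for their function. Each of the 38 was found, once and above 0, among the 32868 gene names of the deposited values. RNA came from the tibialis anterior, a muscle at the front of the shin, of C57BL/6 mice at postnatal day 21. Group Nf1-KO carried the genotype Nf1flox/flox/Myf5+ and group Het the genotype Nf1flox/+/Myf5+, so both groups held a floxed Nf1 allele and Myf5+. The labels do not spell out Myf5+. In crosses of this kind it commonly stands for a Cre recombinase made in muscle precursors. Which cells lost Nf1 was not tested here. Each group had 2 libraries, and nothing says whether these came from separate animals, so the p-values measure the spread between libraries, which may be technical.

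Autophagy wraps a piece of cytoplasm in a growing double membrane, the phagophore, which closes into an autophagosome and fuses with a lysosome. A kinase complex starts the process, a lipid kinase complex marks the membrane, and a conjugation system couples small ubiquitin-like proteins of the Atg8 family to it. Receptor proteins bind both Atg8 proteins and cargo, and in mitophagy the cargo is a mitochondrion. Muscle depends on this route to clear damaged mitochondria and proteins, and both a block and an excess of autophagy are known to waste muscle.

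Values are RPKM, reads divided by gene length and by library depth, so levels of different genes can be set side by side. Nf1, the deleted gene, was at 1.09 and 1.01 RPKM in Het and 0.89 and 0.85 RPKM in Nf1-KO. Its limma adjusted p was 0.041 and its log2 fold change -0.18, and the adjusted p was 0.094 with values not scaled between libraries. That call was also lost without each of the 4 libraries in turn. Estimated depth was 36500000 to 58100000 reads. The 6 myofibre markers summed to 43801 and 43907 RPKM in Het and 37421 and 37094 RPKM in Nf1-KO, with all 6 well above 0. They did not share a direction, since 5 of the 6 were lower in Nf1-KO and Mb was higher. Mb held 2932.78 and 2906.07 RPKM in Het and 5099.08 and 5135.09 RPKM in Nf1-KO (log2 fold change 0.71, limma adjusted p 5.3e-07). Markers of other cells had far lower sums. As deposited, these differed between groups apart from the adipocyte sum, at 2.25 and 2.38 against 2.28 and 2.48 RPKM. Of 8 macrophage and leukocyte names, summing to 9.0 and 9.2 against 28.4 and 28.3 RPKM, all 3 that could be tested were higher in Nf1-KO, while the macrophage marker Adgre1, listed also under its older name Emr1, was at 0 under both. The call of Cd68, 1 of the 3, was lost without Het replicate 1 and without Nf1-KO replicate 1. All 5 fibroblast markers (86.7 and 84.4 against 128.0 and 128.7 RPKM summed) were higher, with the call of Dcn lost without Het replicate 2. The 5 endothelial markers summed to 75.8 and 76.6 against 86.0 and 84.9 RPKM, with 3 higher and 1 lower. Of these, Flt1 (higher) and Kdr (lower) held without each library in turn, while the calls of Pecam1 and Tek were lost in each such fit. Of 4 adipocyte and 4 satellite cell markers, 2 each could be tested and 1 each was higher. That of the satellite cells, Vcam1, lost its call without each library. That of the adipocytes was Cidec, while Adipoq had a log2 fold change of -0.19 without a call. Lep, too low to test, held 0.21 and 0.22 RPKM in Het and 0.03 and 0.05 RPKM in Nf1-KO. Other markers too low to test went in different directions as deposited. Myf5, of the satellite cells, held 0.21 and 0.22 RPKM in Het and 0.57 and 0.42 RPKM in Nf1-KO. The leukocyte markers Ptprc, Itgam and Cd14 were also higher in Nf1-KO, while Calcr was lower and Plin1 overlapped. The part of these cells in the results below was not tested, and in whole muscle fewer cells of a type and less RNA per cell cannot be told apart.

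Of the 38 genes, 21 differed between groups at a limma adjusted p under 0.05, against 50.3% of the 10690 genes tested, so the machinery was changed about as often as other genes. Higher in Nf1-KO were 9 (24.9% of all genes were) and lower were 12 (25.4% of all genes were). The 9 higher genes included 4 of the 5 Atg8 genes and the mitophagy genes Pink1 and Bnip3, whereas the 12 lower genes included Park2, Atg12, Ulk2, Fundc1, Atg101 and Sqstm1. Fold changes are of log2(RPKM + 1) after scaling between libraries, which understates changes of low genes. Changes were small: 18 of the 21 were under 0.5 on the log2 scale, and the other 3 were Park2, Atg12 and Gabarapl1, where 9.75% of all genes were called with a change of that size. The largest change was that of Park2, whose RPKM + 1 fell by 45.0% after scaling. The median log2 fold change of the 38 genes was -0.03.

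**Figure D1:**
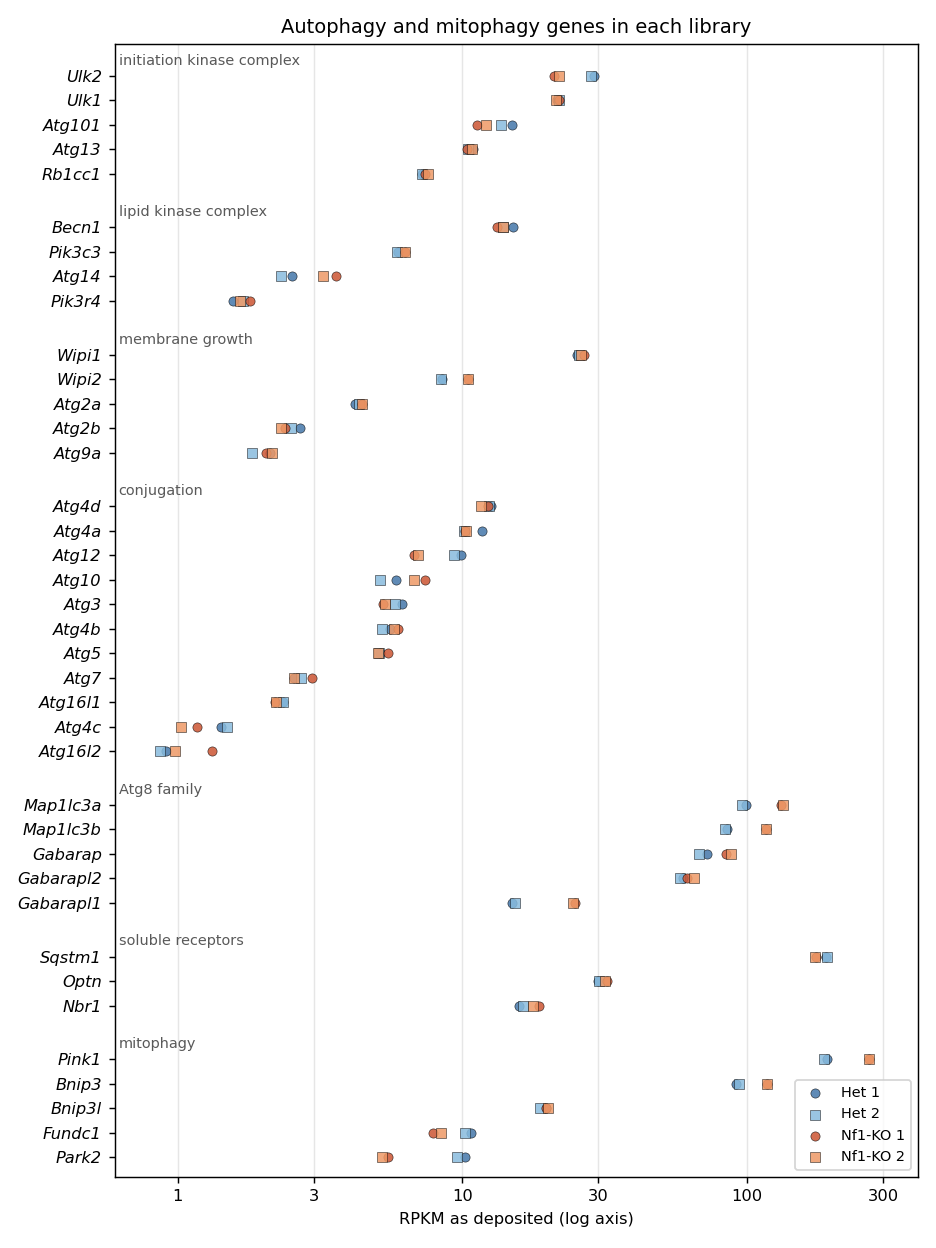
RPKM of the 38 genes on a log axis, grouped by role, with 1 point per library (dark and light blue: Het 1 and 2, dark and light orange: Nf1-KO 1 and 2). Pink1 and Sqstm1 had the highest levels and Atg16l2 and Atg4c the lowest, and the libraries of the groups separate most clearly for Park2, Gabarapl1 and Pink1.

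How the libraries are scaled matters for the small changes. With values as deposited, 12 of the 38 were higher (35.2% of all genes were) and 8 lower (17.6% of all genes were), and the median was 0.05 against 0.07 for all genes tested. After scaling, the groups did not overlap in 31 of the 38 genes, against 76.3% of all genes. In 14 genes the call was the same under all 13 alternative settings tried: Wipi2, Map1lc3a, Map1lc3b, Gabarap, Gabarapl1, Bnip3 and Pink1 stayed higher, and Ulk2, Atg101, Atg3, Atg12, Sqstm1, Fundc1 and Park2 stayed lower. The other 7 calls were lost in at least 1 setting. Of these, Ulk1, Becn1, Atg14, Atg2b, Atg4d and Atg10 lost theirs with no filter on low values, which tests many more genes, and Ulk1, Becn1 and Atg10 also without the variance trend. Fits without a library leave 1 library in a group, which is assumed to vary like the other group.

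**Figure D2:**
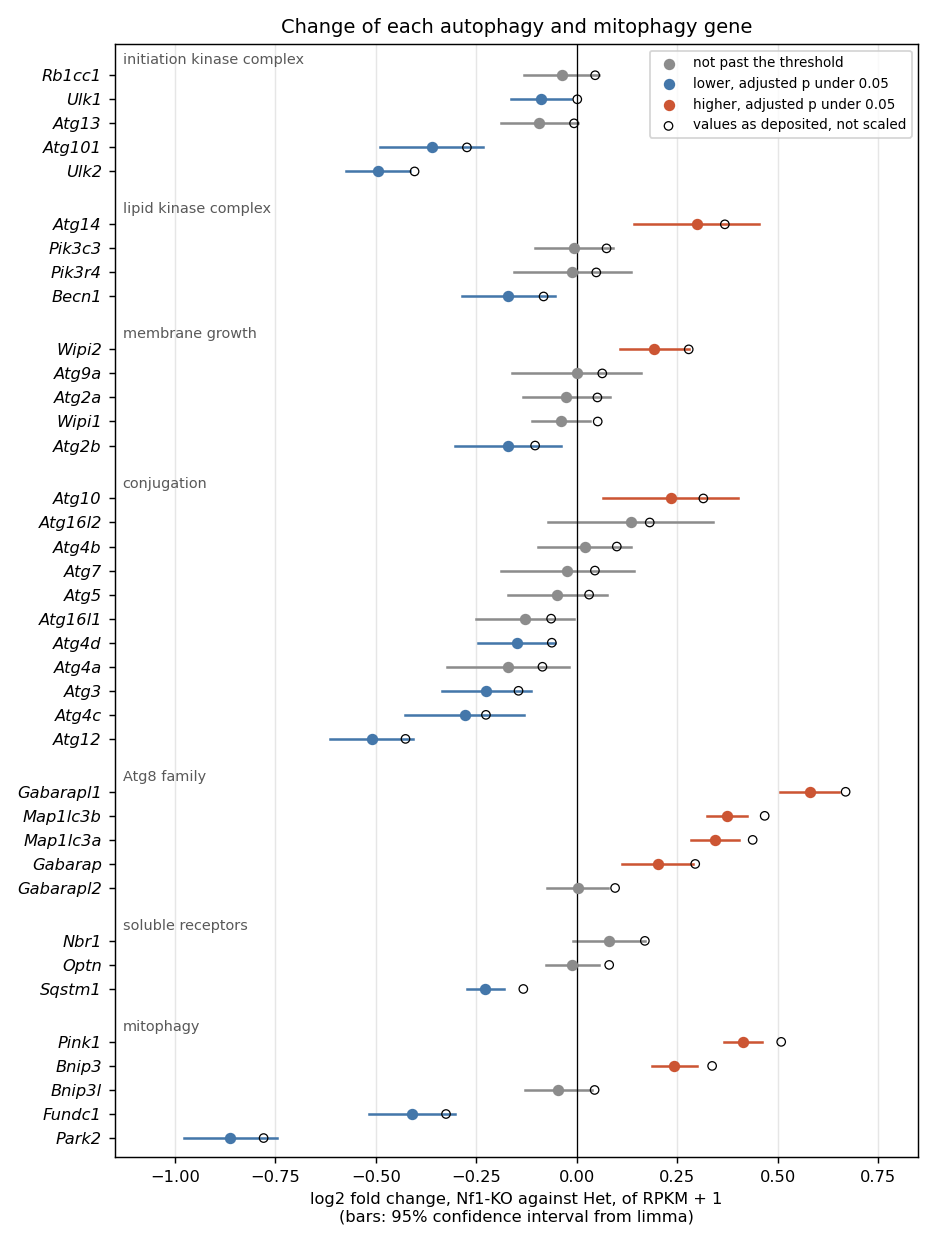
Log2 fold change of RPKM + 1, Nf1-KO against Het, for each of the 38 genes by role, with 95% confidence intervals from limma (filled points: scaled values, coloured by call; open circles: values as deposited). The Atg8 family lies to the right of 0 apart from Gabarapl2, and Park2 lies farthest to the left, at -0.86.

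The initiation kinase complex carried 3 lower genes and no higher one among its 5, where 25.4% of all genes tested were lower and 24.9% higher. Its catalytic subunits are the kinases Ulk1 and Ulk2, which mTOR and AMPK regulate. Ulk2 held 29.08 and 28.24 RPKM in Het and 21.0 and 21.85 RPKM in Nf1-KO, so the groups were well apart. It fell by 0.49 on the log2 scale (SE 0.032, limma adjusted p 5.9e-05). Ulk1 stood at 21.43 and 21.82 against 21.88 and 21.41 RPKM, which overlap as deposited. After scaling its log2 fold change was -0.09 with a limma adjusted p of 0.049, a call lost without each of the 4 libraries in turn and turned to 0.0013 with values as deposited. The level of Ulk1 relative to Ulk2, which no scaling alters, was 0.737 and 0.773 in Het and 1.04 and 0.98 in Nf1-KO.

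Atg101, which with Atg13 bridges the kinases to their scaffold, was at 14.96 and 13.71 RPKM in Het and 11.26 and 12.11 RPKM in Nf1-KO. It fell by 0.36 on the log2 scale (SE 0.053, limma adjusted p 0.0019). Atg13 (log2 fold change -0.09) and the large scaffold Rb1cc1, also named FIP200 (-0.04), did not pass the threshold. Summed, the RPKM of the 5 genes was 82.5 ± 1.46 in Het and 72.9 ± 1.33 in Nf1-KO (SD, n = 2). The difference was -11.7% as deposited, most of it from Ulk2, and -17.3% after scaling.

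The class III lipid kinase complex, which makes the phosphoinositide PI3P on the phagophore, changed in both directions. Atg14, the subunit that sends the complex to sites of autophagosome formation, was at 2.52 and 2.31 RPKM in Het and 3.59 and 3.23 RPKM in Nf1-KO. It rose by 0.30 on the log2 scale (SE 0.064, limma adjusted p 0.0094), and its adjusted p was 0.057 with no filter on low genes. Becn1, the beclin subunit and the most abundant of the 4, held 15.02 and 13.86 against 13.21 and 13.94 RPKM, so its groups overlap as deposited. Its log2 fold change was -0.17 (SE 0.048, limma adjusted p 0.025). That call was lost without Het replicate 1 (-0.12) and without Nf1-KO replicate 1 (-0.13), and was lost with values as deposited (-0.08). The catalytic subunit Pik3c3 (Vps34) and its partner Pik3r4 had log2 fold changes of -0.0073 and -0.01 and did not pass, with 95% intervals from -0.10 to 0.09 and from -0.16 to 0.13.

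Promoter letters of 30 of the 38 genes were found in RefSeq (GRCm38.p6), taken as 250 bases before to 50 bases after a listed start. For these, 5 motifs were searched on both strands. Atg4a, Atg4c and Nbr1 have more than 1 listed start, and a gene was counted if any of its promoters held the motif. The percentages are per promoter. The E-box CACGTG, which holds the binding core of Tfeb and related factors, stood in 5 of the 30 (Atg14, Atg3, Atg5, Atg7 and Bnip3), and in 7.15% of the 32851 promoters of the table. Its longer form TCACGTGA, the core of the CLEAR element of lysosomal genes, stood in Atg3 alone, and in 0.974% of promoters. The FoxO motif GTAAACA (3.65% of promoters) and the ATF4 type motif TGATGNAA (3.97%) stood in none of the 30. The motif AAGGTCA, bound by estrogen-related receptors (4.72%), stood in the Atg4a promoter at chrX:140953595-140953894 and not in the other listed for Atg4a. Of the 5 genes with an E-box, Atg14 and Bnip3 were higher, Atg3 was lower, and Atg5 and Atg7 were not past the threshold, so these genes did not share a direction. The promoter of Atg14 (chr14:47568385-47568684, minus strand, GRCm38.p6) is shown for its E-box, in capitals, whose first base lies 1 base before the start.
Atg14: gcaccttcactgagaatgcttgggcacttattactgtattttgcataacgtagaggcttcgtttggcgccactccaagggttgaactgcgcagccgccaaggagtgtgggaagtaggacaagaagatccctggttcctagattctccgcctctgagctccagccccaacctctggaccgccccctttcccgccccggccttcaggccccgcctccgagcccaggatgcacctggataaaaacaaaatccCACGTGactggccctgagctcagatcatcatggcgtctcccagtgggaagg

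Membrane growth proteins showed little change. Wipi1 and Wipi2 bind PI3P, and Wipi2 recruits the conjugation machinery. Wipi2 was at 8.50 and 8.43 RPKM in Het and 10.47 and 10.49 RPKM in Nf1-KO and rose by 0.19 on the log2 scale (SE 0.035, limma adjusted p 0.0047). Wipi1, the most abundant of the 5, held 25.25 and 25.73 against 26.83 and 26.1 RPKM. It did not pass the threshold (log2 fold change -0.04 scaled and 0.05 as deposited). Of the lipid transfer proteins, Atg2b had a log2 fold change of -0.17 (limma adjusted p 0.039). Its call was lost without Het replicate 1 and without either Nf1-KO library, and with values as deposited. Atg2a (-0.03) and the scramblase Atg9a (1.0e-04) were not past the threshold.

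The conjugation system holds 11 of the genes, of which 4 were lower, 1 higher and 6 not past the threshold (all genes: 25.4% lower, 24.9% higher). It works as a pair of linked reactions: Atg7 activates both Atg12 and the Atg8 proteins, Atg10 joins Atg12 to Atg5, and Atg3 couples Atg8 proteins to lipid where Atg12-Atg5 and Atg16l1 sit. Atg12 had the largest change of the 11. It was at 9.87 and 9.35 RPKM in Het and 6.78 and 7.01 RPKM in Nf1-KO, with no overlap. It fell by 0.51 on the log2 scale (SE 0.043, limma adjusted p 0.00017). Atg5, its partner in the conjugate, held 5.15 and 5.09 against 5.47 and 5.04 RPKM and was not past the threshold (log2 fold change -0.05, 95% interval -0.17 to 0.07). The Atg12 level relative to Atg5 was 1.92 and 1.84 in Het and 1.24 and 1.39 in Nf1-KO.

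The enzymes of the same reactions did not move together. Atg3 was at 6.16 and 5.82 RPKM in Het and 5.27 and 5.37 RPKM in Nf1-KO, and fell by 0.23 on the log2 scale (SE 0.045, limma adjusted p 0.0074), or by 0.15 with values as deposited. Atg10 held 5.85 and 5.12 against 7.38 and 6.74 RPKM and rose by 0.23 (SE 0.069, limma adjusted p 0.031), a call lost without Het replicate 2 (0.15) and without Nf1-KO replicate 1 (0.18). Atg7 (-0.02), Atg16l1 (-0.13) and Atg16l2 (0.13) were not past the threshold. Atg16l2 was the lowest of the 38 genes in Het and next to Atg4c in Nf1-KO, at 0.91 and 0.87 against 1.32 and 0.98 RPKM. The promoter of Atg3 (chr16:45158579-45158878, plus strand, GRCm38.p6) is shown since among the 30 it alone holds the CLEAR core; its E-boxes are in capitals, and the one nearer the start lies within TCACGTGA, whose first base is 72 bases before the start.
Atg3: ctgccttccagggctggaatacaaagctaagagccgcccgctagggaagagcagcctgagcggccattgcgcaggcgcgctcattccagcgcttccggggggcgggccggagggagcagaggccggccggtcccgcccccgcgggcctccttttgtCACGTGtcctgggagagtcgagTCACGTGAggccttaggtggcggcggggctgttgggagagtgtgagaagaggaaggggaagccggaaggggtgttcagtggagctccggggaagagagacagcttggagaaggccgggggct

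Atg4 proteases trim newly made Atg8 proteins and later release them from membranes. Atg4d, the most abundant of the conjugation genes, held 12.61 and 12.38 RPKM in Het and 12.26 and 11.6 RPKM in Nf1-KO, a narrow gap. Its log2 fold change was -0.15 (SE 0.040, limma adjusted p 0.021), a call lost without Het replicate 1 (-0.14) and without Nf1-KO replicate 2 (-0.10), and with values as deposited (-0.06). Atg4c was low, at 1.42 and 1.49 against 1.17 and 1.03 RPKM, and fell by 0.28 on the log2 scale (limma adjusted p 0.010). That call was lost without Nf1-KO replicate 2, where the adjusted p was 0.066. With 0.1 in place of 1 added to RPKM its log2 fold change was -0.46 (limma adjusted p 0.012). Atg4b (0.02), the protease with the broadest action, and Atg4a (-0.17, limma adjusted p 0.062) did not pass.

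The Atg8 family was the role in which most genes rose, with 4 of 5 higher and none lower. Of all genes tested 24.9% were higher, and of those at 50 RPKM or more 54.3% were. All of the family but Gabarapl1 held that level. These proteins, coupled to lipid, coat the autophagosome and hold receptors and cargo to it. Map1lc3a, the most abundant, was at 99.41 and 95.79 RPKM in Het and 131.81 and 133.22 RPKM in Nf1-KO. It rose by 0.34 on the log2 scale (SE 0.024, limma adjusted p 8.3e-05). Map1lc3b, the isoform most used as an autophagosome marker, held 84.88 and 83.5 against 116.98 and 116.59 RPKM. Its rise was 0.37 (SE 0.021, limma adjusted p 3.1e-05), and in both genes the groups lay far apart next to the gap between replicates.

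Gabarapl1, the least abundant of the family, rose most. Its libraries held 14.99 and 15.33 RPKM in Het and 24.87 and 24.51 RPKM in Nf1-KO, a log2 fold change of 0.58 (SE 0.031, limma adjusted p 2.5e-05). Gabarap, at 72.56 and 68.01 against 84.67 and 88.15 RPKM, rose by 0.20 (SE 0.036, limma adjusted p 0.0046). Gabarapl2 was the exception, at 59.72 and 58.35 against 61.41 and 64.9 RPKM. Its scaled log2 fold change was 0.0022, with a 95% interval from -0.07 to 0.08, and it was called higher only with values as deposited (0.10, limma adjusted p 0.0499).

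The RPKM of the family summed to 326 ± 7.48 in Het and 424 ± 5.40 in Nf1-KO (SD, n = 2), 29.8% more as deposited and 21.6% more after scaling. The make-up of the sum shifted little. Gabarapl2 made up 18.0% and 18.2% of it in Het and 14.6% and 15.2% in Nf1-KO, and Gabarapl1 4.52% and 4.78% against 5.93% and 5.74%. The order of the 5 levels, from Map1lc3a over Map1lc3b, Gabarap and Gabarapl2 to Gabarapl1, was the same in the 4 libraries.

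**Figure D3:**
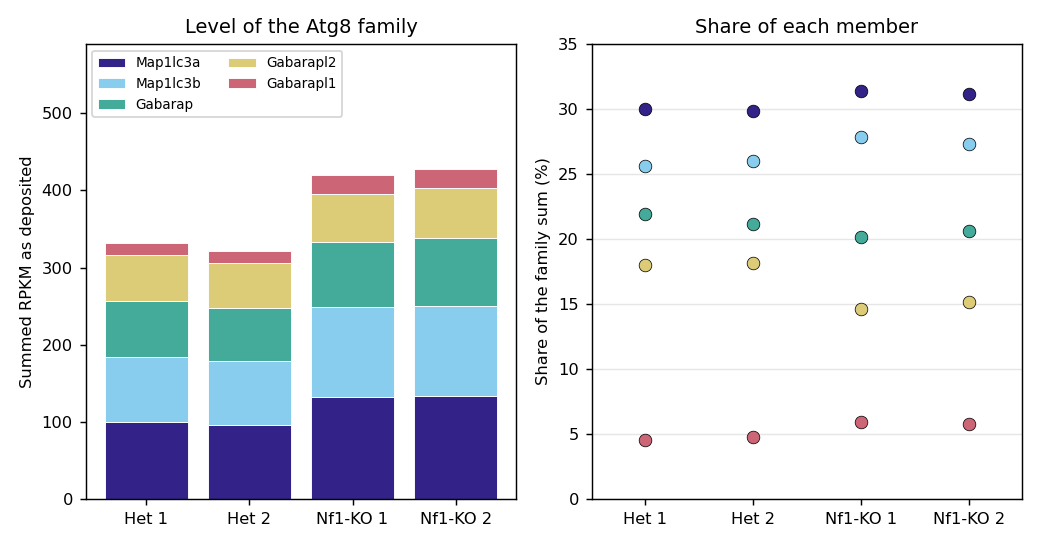
Left, RPKM of the 5 Atg8 genes stacked for each library, from 0; right, the share of each gene in that sum in percent (same colours). The 2 Nf1-KO libraries reach 420 and 427 RPKM against 332 and 321 RPKM in Het, and the share of Gabarapl2 is lower in both.

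Receptors that are themselves soluble did not rise with the Atg8 family. Sqstm1 (p62), which carries ubiquitinated proteins to the autophagosome and is itself degraded there, stood with Pink1 far above the rest of the 38 genes, and in Het its mean was the highest. It held 189.94 and 191.63 RPKM in Het and 174.98 and 172.81 RPKM in Nf1-KO. It fell by 0.23 on the log2 scale (SE 0.019, limma adjusted p 0.00018), and by 0.13 with values as deposited. The level of Map1lc3b relative to Sqstm1 was 0.447 and 0.436 in Het and 0.669 and 0.675 in Nf1-KO. Nbr1, a related receptor (log2 fold change 0.08, 95% interval -0.01 to 0.17), and Optn, which binds ubiquitin on cargo including mitochondria (-0.01, 95% interval -0.08 to 0.06), did not pass. Both were called higher with values as deposited, by 0.17 and 0.08.

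Mitophagy genes split, with 2 higher, 2 lower and 1 not past the threshold (all genes: 24.9% higher, 25.4% lower). The kinase Pink1 builds up on damaged mitochondria and activates the ubiquitin ligase parkin, the product of Park2, which marks them for removal. By its mean over the 4 libraries Pink1 was the most abundant of the 38 genes, at rank 186 of the 10690 tested; in Het the mean of Sqstm1 was slightly higher. Its libraries were at 190.38 and 186.09 RPKM in Het and 267.45 and 268.93 RPKM in Nf1-KO. It rose by 0.41 on the log2 scale (SE 0.020, limma adjusted p 1.5e-05), or 33.3% in RPKM + 1 after scaling.

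Park2 went the other way. It was at 10.19 and 9.59 RPKM in Het and 5.49 and 5.2 RPKM in Nf1-KO, so both Nf1-KO libraries lay far below both Het libraries. It fell by 0.86 on the log2 scale (SE 0.048, limma adjusted p 3.0e-05), the largest change of the 38 genes, and over the alternatives its log2 fold change ran from -0.97 to -0.78. Since kinase and ligase moved apart, the level of Pink1 relative to Park2 was 18.7 and 19.4 in Het and 48.7 and 51.7 in Nf1-KO, a ratio that does not depend on scaling.

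Receptors built into the outer mitochondrial membrane, which bind Atg8 proteins without parkin, also differed among themselves. Bnip3 was at 91.41 and 93.91 RPKM in Het and 117.22 and 117.32 RPKM in Nf1-KO, and rose by 0.24 (SE 0.023, limma adjusted p 0.00027). Its close relative Bnip3l (Nix), at 19.66 and 18.73 against 19.66 and 19.98 RPKM, was not past the threshold (log2 fold change -0.05, 95% interval -0.13 to 0.04). Fundc1, a receptor for mitophagy in hypoxia, held 10.7 and 10.25 RPKM in Het and 7.91 and 8.41 RPKM in Nf1-KO. It fell by 0.41 (SE 0.044, limma adjusted p 0.00048). Summed over the 5 mitophagy genes, RPKM was 320 ± 2.67 in Het and 419 ± 1.49 in Nf1-KO (SD, n = 2). That is 30.7% more as deposited and 22.4% more after scaling. Pink1 made up 58.4% to 59.1% of that sum in Het and 64.0% to 64.1% in Nf1-KO, and Park2 3.01% to 3.16% and 1.24% to 1.31%. The promoter of Bnip3 (chr7:138909457-138909756, minus strand, GRCm38.p6) is shown for its E-box, in capitals, which starts 108 bases before the gene's start.
Bnip3: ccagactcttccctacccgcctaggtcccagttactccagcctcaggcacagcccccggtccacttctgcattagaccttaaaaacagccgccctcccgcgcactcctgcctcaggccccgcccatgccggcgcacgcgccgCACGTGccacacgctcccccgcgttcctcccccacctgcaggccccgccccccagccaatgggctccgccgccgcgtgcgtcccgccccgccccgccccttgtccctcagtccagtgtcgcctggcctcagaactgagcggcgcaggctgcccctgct

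Among the 38 genes, as among all genes tested, abundant ones were more often higher. Of the 7 genes of at least 50 RPKM, a level chosen after the values were seen, 5 were higher, 1 (Sqstm1) lower and 1 (Gabarapl2) not past the threshold. Among all 761 tested genes of that level, 54.3% were higher and 30.9% lower. Of the 31 genes under that level, 4 were higher and 11 lower, where 22.6% and 25.0% of all genes under it were. Across the 38 genes, which share the 4 libraries, the log2 fold change had a Spearman correlation of 0.21 with the mean level.

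The authors' deposited table, which has the layout of DESeq2 output and rests on the same libraries, was set beside these values. The authors' deposited table called 20 of the 38 genes, or 8 higher and 12 lower, where 31.6% of its 13985 rows were called (15.0% higher and 16.6% lower). All 20 were called here in the same direction, and Atg10 was called here only (log2 fold change 0.26 and adjusted p 0.136 in the authors' deposited table). In the authors' deposited table Park2 stood at -0.99 (SE 0.081) and Pink1 at 0.40 (SE 0.023) on the log2 scale. Signs differed for Atg9a and Gabarapl2, both near 0. The widest gap was for Atg4c, at -0.51 in the authors' deposited table and -0.28 here, or -0.46 here with 0.1 added to RPKM in place of 1. Mean normalized counts in the authors' deposited table ran from 104 for Atg16l2 to 25463 for Pink1.

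**Figure D4:**
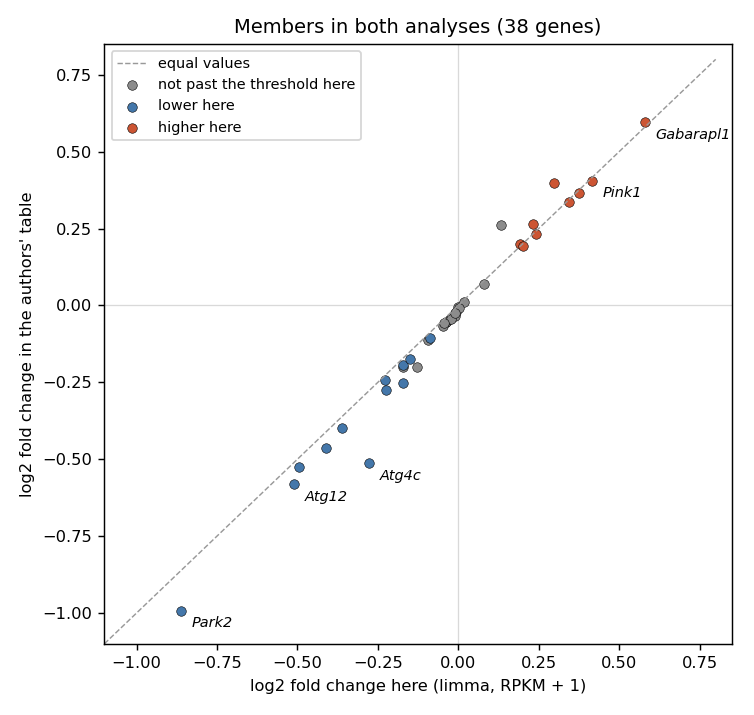
Log2 fold change of the 38 genes here (limma on RPKM + 1, horizontal) against that in the authors' deposited table (vertical), coloured by the call here, with a dashed line of equal values. Most points lie close to the line, and Atg4c (-0.28 here, -0.51 there) lies farthest from it.

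A further 44 genes of the pathway outside the 38 were listed by function: upstream regulators, transcription factors, other receptors, and fusion with the lysosome. Of these, 43 were found and 42 could be tested, since Tfe3 was listed at 0 in all libraries. Higher were 11 and lower 13, near the shares of all genes tested (24.9% and 25.4%), and the median change was 0.03 on the log2 scale. The 13 include Bcl2, which reached the minimum level for a test only in Het, and leave 12 without it. With values as deposited 20 were higher and 9, again with Bcl2, lower, where the shares of all genes were 35.2% and 17.6%. The number of lower genes was 6 to 8 when a library was left out.

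Among the higher genes were Vamp8, a SNARE protein of autophagosome fusion (13.53 and 16.09 against 23.67 and 24.37 RPKM; log2 fold change 0.58), and the FoxO transcription factor Foxo3 (3.15 and 3.06 against 5.19 and 4.99 RPKM; 0.49). Phb2, a protein of the inner mitochondrial membrane that can act as a mitophagy receptor, rose by 0.40, and Sh3glb1, a membrane-bending partner of beclin complexes, by 0.29. Their limma adjusted p was 0.0010 for Vamp8, 0.00032 for Foxo3, 3.1e-05 for Phb2 and 0.00019 for Sh3glb1. Bag3, a cochaperone of selective autophagy in muscle, rose by 0.21 (limma adjusted p 0.00076). Tfeb, a transcription factor of lysosomal and autophagy genes, held 15.47 and 15.74 against 16.96 and 17.64 RPKM. It was not past the threshold after scaling (0.05, limma adjusted p 0.25) and was past it with values as deposited (0.14, limma adjusted p 0.015).

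The lower genes were led by Trp53inp2, a nuclear and autophagosome protein that binds Atg8 proteins, at 160.17 and 159.89 RPKM in Het and 120.63 and 118.68 RPKM in Nf1-KO. It fell by 0.51 on the log2 scale (SE 0.020, limma adjusted p 7.4e-06). Bcl2, which binds and restrains beclin, was at 0.73 and 0.78 RPKM in Het and 0.27 and 0.37 RPKM in Nf1-KO. Since it entered the test only through its level in Het, these values are given as a description. Epg5, a tether of autophagosomes and lysosomes, fell by 0.38 and Rubcn, an inhibitor of the lipid kinase complex, by 0.31 (limma adjusted p 0.0017 and 0.0043).

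**Figure D5:**
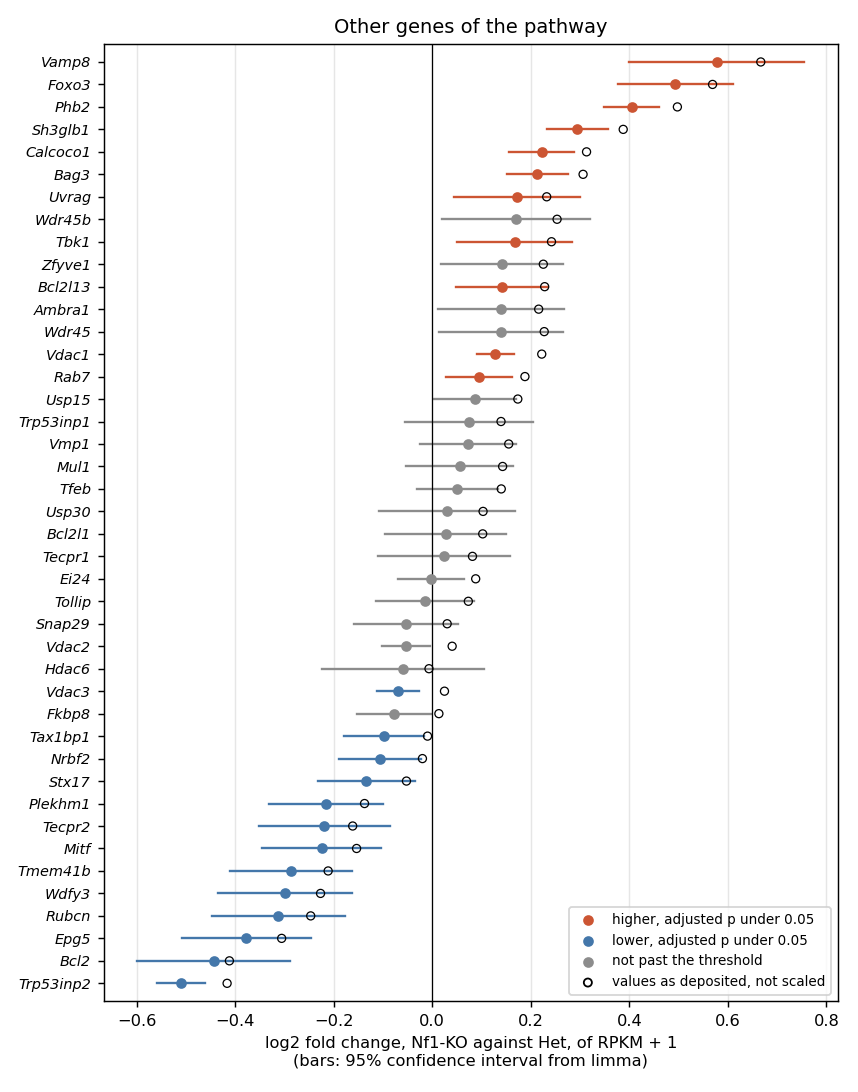
Log2 fold change of RPKM + 1, Nf1-KO against Het, of the 42 further pathway genes tested, in order, with 95% confidence intervals from limma (filled points: scaled values; open circles: values as deposited). Vamp8 (0.58) and Trp53inp2 (-0.51) mark the ends, and open circles lie to the right of filled ones throughout. Bcl2, which reached the minimum level only in Het, is included.

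Some values may hold reads of other genes. In the GENCODE M21 annotation, exons of 13 of the 38 genes overlap those of another gene: Rb1cc1, Becn1, Atg14, Atg2b, Atg9a, Atg4d, Atg16l2, Map1lc3b, Gabarapl1, Sqstm1, Optn, Bnip3 and Pink1. Whether reads were counted by strand is not given in the sources used here. Stretches of at least 250 bases at 95% identity or more recur in transcripts of other genes, mostly pseudogenes, for Atg4a, Map1lc3b, Gabarapl2, Bnip3 and Bnip3l. Among the further pathway genes named, exons of Rubcn, Bcl2 and Phb2 also overlap another gene. Values of these genes are uncertain as far as reads were shared.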

How the data were processed

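RNA of 2 Het and 2 Nf1-KO libraries was sequenced by the authors. Per the submitters' processing notes, STAR 2.4.2a, DESeq2 and the build mm9 were used; annotation and counting are not given in the sources used here. The authors deposited 34682 rows of values per library, read here as RPKM, that is reads divided by gene length and depth before deposit; the unit is not named, and this was inferred from the values. They sum to 532146 to 546969 per library with copies included and rows with a number for a name left out. Mean count over RPKM rose with transcript length (log-log slope 0.95). The authors' deposited table holds, per the file headers, a signal value (mean normalized count), a log2 fold change, its standard error and test score, and a raw and adjusted p-value.

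Left out were 33 rows with a number for a name and 1781 lower copies. The filter was 0.5 RPKM in 2 or more libraries, and all 38 genes passed it in both groups. Genes of the further lists that passed through 1 group alone stayed in the fit and in the counts. Bcl2 is such a gene, and its values are given only as a description. The test was limma 3.58.1 (R 4.3.3), with a variance trend, on log2 of RPKM + 1. Scaling used a mean of log ratios after trimming 30% of ratios and 5% of abundances from either end (factors 0.968, 0.967, 1.03 and 1.03). P-values are two-sided with Benjamini-Hochberg adjustment across the 10690 genes and a threshold of 0.05. An exact permutation test of 2 against 2 cannot go below 0.333. The script was tested on simulated data. Depth was estimated from the steps of low values in genes with transcripts under 400 bases, and the values lay 0.0750 to 0.0868 of a read from whole reads on average. Near-identical stretches were searched with blastn 2.17.0. Promoter positions are of GRCm38.p6, not mm9, and no position was moved between builds.

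The 38 genes, the further lists and the motifs were chosen with earlier results of these data known. Called genes changed by at least 0.3 and the most abundant of each role, by mean over the 4 libraries, are given by library. Of the further genes, the 4 largest changes in each direction among those called, with Tfeb, Tfe3, Foxo3 and Bag3, are named. A further list of cell type markers is not reported here.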

Additional observations from a re-analysis of the deposited data

How the results depend on the processing

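Of 493 values of the 38 genes under 13 alternatives, 432 had the same direction and call, 29 lost a call and 6 gained one in the same direction, and 26 changed sign. Of these 26, 1 also lost its call (Ulk1) and 1 gained one (Optn), both with values as deposited. No gene called after scaling changed sign apart from Ulk1. With values as deposited the log2 fold change was 0.0013 for Ulk1, 0.046 for Rb1cc1, 0.074 for Pik3c3, 0.048 for Pik3r4, 0.052 for Wipi1, 0.051 for Atg2a, 0.031 for Atg5, 0.045 for Atg7, 0.081 for Optn and 0.044 for Bnip3l. Scaling without the 20 most abundant genes gave -2.0e-04 for Atg9a, no filter on low values -0.0083 for Atg9a and -0.010 for Gabarapl2, and the filter of 1 RPKM in every library 0.0023 for Pik3c3 and no value for Atg16l2. Leaving out single libraries gave log2 fold changes from -0.016 to 0.0027 for Pik3c3, -0.052 to 0.031 for Pik3r4, -0.074 to 0.067 for Atg9a, -0.025 to 0.054 for Atg4b, -0.092 to 0.011 for Atg5, -0.095 to 0.061 for Atg7, -0.026 to 0.049 for Gabarapl2 and -0.023 to 0.015 for Optn. The count of higher further pathway genes was 7 with no filter and 20 with values as deposited, and the count of lower ones ran from 6 to 8 when a library was left out, with 1 residual degree of freedom. The cause of these changes was not tested.

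Deviations of libraries with the same replicate number correlated at -0.018, so no shared deviation was seen. This value cannot show whether the libraries were paired in the experiment. In a fit with replicate as a block, 9 of the 38 genes were higher and 12 lower, as without it; 5343 genes were called in all, 12 further pathway genes were higher and 10 lower. Ulk1 lost its call (limma adjusted p 0.071) and Atg4a gained one (0.043).

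The 7 calls of the 38 that some alternative ended were those of Ulk1, Becn1, Atg14, Atg2b, Atg4c, Atg4d and Atg10. The depth limits low genes most: Atg16l2 rests on a mean of 104 normalized counts in the authors' deposited table.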
